A study of Mus musculus with 16 samples.

Results

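The 37 genes described here are transcripts of bone-forming cells and of the marrow stroma, the non-blood cells that build bone matrix and the niche of blood stem cells. They were named as a fixed list, with no value used as a threshold but with earlier results of these data known. Each of the 37 was found by its Ensembl identifier among the 49585 genes counted in FACS-sorted neutrophils. RNA of neutrophils from the bones of C57BL/6 mice aged 8 to 12 weeks had been sequenced in 16 libraries, 4 in each of 4 groups, which fall into 2 mouse lines. In the P2 line, P2KO mice were Vav:cre PHD2 f/f and P2WT mice were labelled wild type. In the P2H2 line, P2H2KO mice were Vav:cre PHD2/HIF2 ff/ff, so that PHD2 and HIF2 were both floxed, and P2H2WT mice were again labelled wild type. Vav:cre recombines in blood-forming cells and their descendants and also in some endothelium, so bone-forming cells are not its main target. Whether the wild-type mice carried floxed alleles or the Cre, the sorting gates, and whether a library came from 1 mouse are not given in the sources used here.

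Osteoblasts deposit a matrix of type I collagen, which they stiffen with non-collagenous proteins such as osteonectin, osteocalcin and bone sialoprotein and then mineralise; some are buried in it as osteocytes. Reticular stromal cells of the marrow, marked by leptin receptor and adiponectin, secrete the chemokine CXCL12 and the growth factor SCF (Kitl), which hold stem cells in the niche and retain neutrophils in the marrow. Type I collagen and osteocalcin are classical products of osteoblasts and not of neutrophils.

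The 2 lines were counted in separate tables, and their libraries also carry separate title numbers, 1 to 10 for the P2 line and 11 to 18 for the P2H2 line, so line, table and any difference in handling cannot be told apart. Between 23450746 and 28601284 reads per library had been counted, and values below are counts per 1000000 reads of the library, scaled by its TMM factor (CPM). As a check of the cell label, 12 of 12 neutrophil markers were present in every library and together made up 31895 to 74679.8 CPM in the P2 line and 44132 to 83427 CPM in the P2H2 line. Counts over whole genes could not check the genotypes: Egln1, which encodes PHD2, lay at 43.2 to 58.3 CPM in P2KO and 45.9 to 51.3 CPM in P2WT, and Epas1, which encodes HIF2, at 3.42 to 8.38 CPM in P2H2KO and 2.55 to 4.97 CPM in P2H2WT. In the P2 line Epas1 was at 6.75 to 24.4 CPM in P2KO and 8.69 to 11.3 CPM in P2WT. It was thus higher in P2WT than in P2H2WT without overlap, and the cause was not tested. Which exons were floxed is not stated.

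Together the 37 stroma genes made up 778 to 1717 CPM in the 8 libraries of the P2 line and 342 to 593 CPM in the 8 libraries of the P2H2 line, with no overlap. As a share of counts this was between 0.0337% and 0.178%, so the genes form a small part of every library. In these bulk samples, a difference in the number of stromal cells and one in stromal RNA per cell cannot be told apart, nor can either from a difference in handling. Whether the reads came from stromal cells in the samples was not tested. Within each line the genotypes overlapped: the sum ran from 877 to 1558 CPM in P2KO against 778 to 1717 CPM in P2WT, and from 342 to 464 CPM in P2H2KO against 342 to 593 CPM in P2H2WT. The map of all 37 genes by library shows this split, and also genes that did not follow it, such as Runx2, Col5a1 and Serpinf1.

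**Figure D1:**
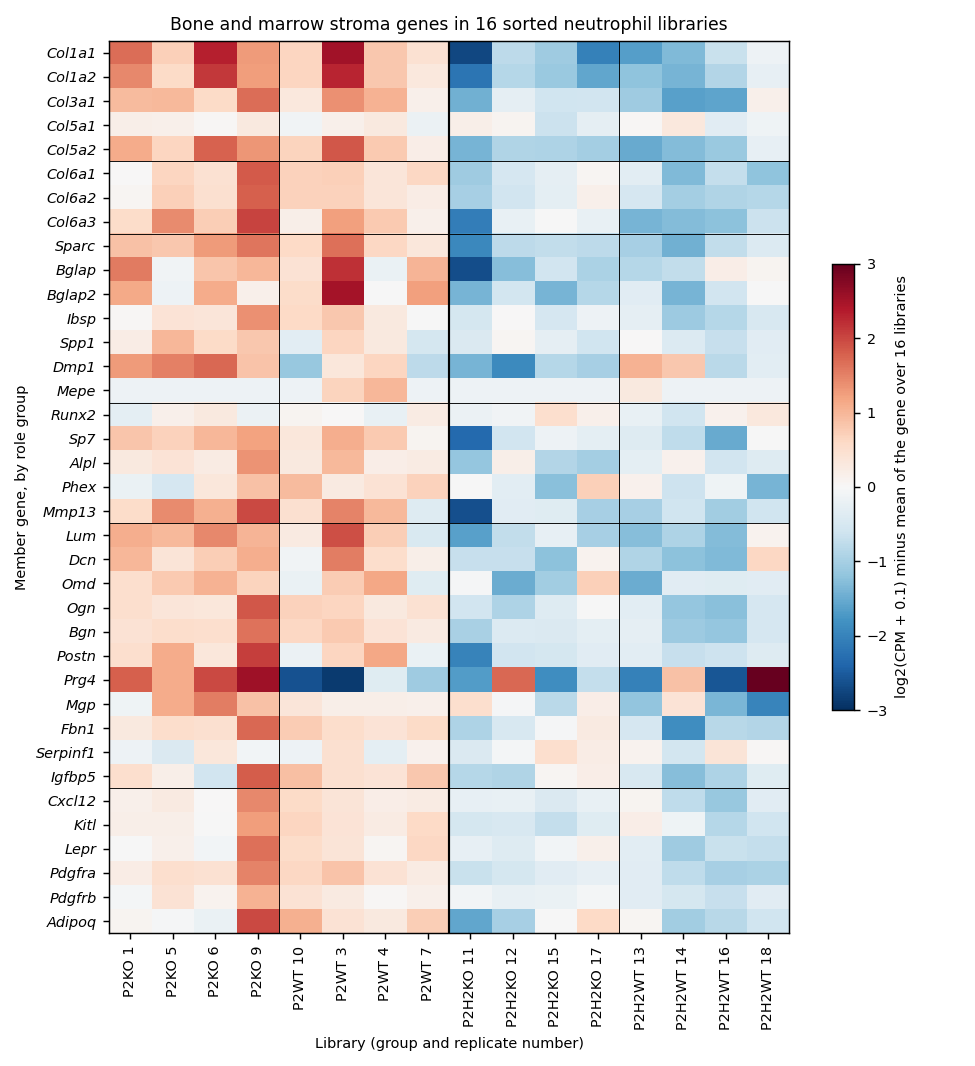
Each row is 1 of the 37 stroma genes and each column 1 library; the colour is log2(CPM + 0.1) minus the mean of that gene over the 16 libraries, and lines part the groups and the role groups. The 8 columns of the P2 line are mostly red and the 8 of the P2H2 line mostly blue, while the rows of Runx2, Col5a1 and Serpinf1 stay pale throughout.

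Scaled by length of the exons, the most abundant of the 37 genes over all libraries was Col1a1, at a mean level of 25.7 RPKM, which is CPM per kilobase of exon. Cxcl12 followed at 17.96, Sparc at 13.3, Col1a2 at 11.1, Spp1 at 9.59, Ibsp at 8.28 and Igfbp5 at 7.35 RPKM. The lowest mean levels were 0.143 RPKM for Dmp1, 0.121 for Postn, 0.0996 for Omd, 0.0858 for Phex and 0.00862 for Mepe, whose 6 reads in all came from 3 libraries (2, 3 and 1). The order differed between lines, with Col1a1 at 44.2 and Cxcl12 at 23.1 RPKM in the P2 line, and Col1a1 at 7.21 and Cxcl12 at 12.8 RPKM in the P2H2 line.

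The line difference was measured once per genotype in separate libraries, as P2KO against P2H2KO and as P2WT against P2H2WT, in a single fit of all 16 libraries with the edgeR quasi-likelihood test. The first of these also differs in HIF2 genotype, and the second had been seen when this gene list was first drawn up, so its member values are a description and support nothing here. Because the list was chosen with earlier results of these data known, the KO counts are given as a description too. Of the 36 genes that passed the filter on low counts (Mepe did not), 9 were called higher in P2KO than in P2H2KO at an adjusted p under 0.05 and 0 lower, where 0.767% of all 14080 genes tested were called higher. These were Sparc, Col5a2, Col1a2, Col1a1, Dmp1, Bgn, Mmp13, Pdgfra and Postn. The median log2 fold change of the 36 was 1.35, beside 0.0062 over all genes. Between P2WT and P2H2WT, 2 of 36 were called higher (Col5a2 and Sparc) and 0 lower, where 0.227% of all genes were called and 0.121% were called higher. There the median was 1.30, beside -0.0060 over all genes, and 34 of 36 values were positive in each comparison. DESeq2 called 22 and 18 of the 36 in the KO and WT comparisons, where it called 3.0% and 2.07% of all genes. It gave no adjusted p for Prg4 in either comparison. The edgeR counts rested on single libraries: the 9 became 3 without P2H2KO 11, 15 or 17 and 5 without P2KO 5, P2KO 9 or P2H2KO 12, and the 2 became 14 without P2KO 9 and 0 without any 1 of the 4 P2WT libraries, P2H2KO 12, P2H2WT 13, 14 or 16. Calls over all genes moved as well: the 130 in the KO comparison became 39, 38 and 63 without P2H2KO 11, 15 and 17, and 68, 44 and 49 without P2KO 5, P2KO 9 and P2H2KO 12, while the 32 in the WT comparison became 182 without P2KO 9. At an unadjusted p under 0.05, 28 were higher and 0 lower in P2KO than in P2H2KO (9.50% and 6.34% of all genes) and 29 were higher and 1, Prg4, lower in P2WT than in P2H2WT (6.94% and 3.10% of all genes).

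Over both genotypes, 13 of the 36 had all 8 libraries of the P2 line above all 8 of the P2H2 line, where 1.24% of all genes did. They were Col1a1, Col1a2, Col5a2, Col6a3, Sparc, Sp7, Alpl, Ogn, Bgn, Postn, Fbn1, Pdgfra and Pdgfrb, which span each of the 6 role groups. The reverse order was found for 0 of the 36, and for 0.263% of all genes. In the KO libraries alone 24 of 36 were higher in the P2 line without overlap and 0 were lower (4.42% and 2.56% of all genes), and in the WT libraries alone also 24 and 0 (5.18% and 2.59% of all genes). The counts over both genotypes and over the WT libraries use the WT comparison seen when the list was drawn up. They only describe the members and support nothing here.

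**Figure D2:**
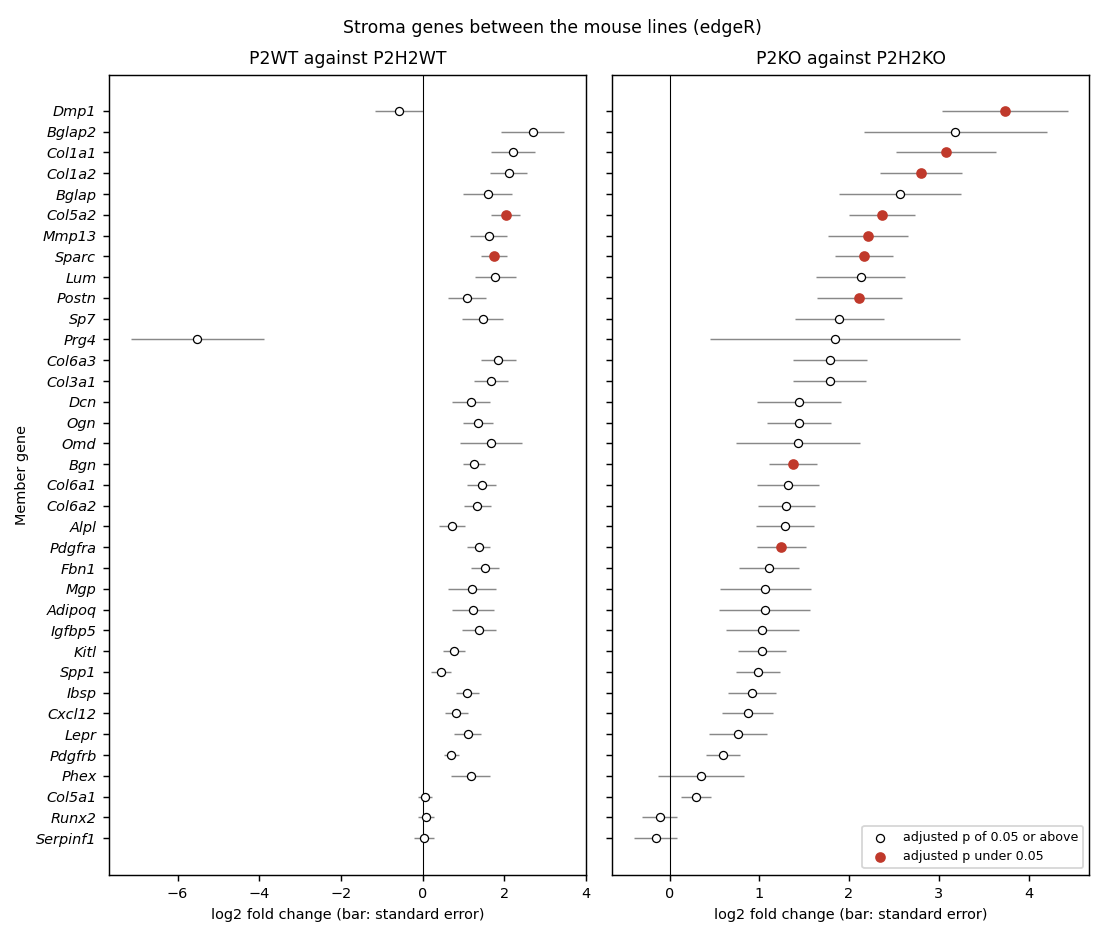
Log2 fold change (points) with its standard error (bars) for the 36 stroma genes tested, P2WT against P2H2WT on the left and P2KO against P2H2KO on the right, each with its own horizontal scale; filled points have an adjusted p under 0.05. Nearly all points lie right of 0 in both panels, those of Runx2, Col5a1 and Serpinf1 lie near it, and that of Dmp1 lies left of 0 for P2WT and far right of it for P2KO.

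The fibrillar collagens are the rope-forming proteins of the bone matrix. Of the 5 listed, 3 were called higher in P2KO than in P2H2KO (0.767% of all genes were). In what follows the values of a group are listed for replicates 1, 5, 6 and 9 of P2KO, 10, 3, 4 and 7 of P2WT, 11, 12, 15 and 17 of P2H2KO, and 13, 14, 16 and 18 of P2H2WT. Col1a1 (chr11:94936224-94953042 on GRCm38), which encodes the main chain of type I collagen, stood at 328, 168, 513 and 249 CPM in P2KO and 159, 585, 179.6 and 141 CPM in P2WT. In the other line Col1a1 stood at 15.3, 59.7, 48.6 and 25.2 CPM in P2H2KO and 32.5, 40.9, 64.2 and 92.2 CPM in P2H2WT. The lowest library of the P2 line, P2WT 7, was above the highest of the P2H2 line, P2H2WT 18, and P2WT 3 and P2KO 6 were the highest of all. Col1a1 was 8.45-fold higher in P2KO than in P2H2KO (log2 3.08 ± 0.56 SE, adjusted p = 0.0218 by edgeR) and 4.63-fold higher in P2WT than in P2H2WT (2.21 ± 0.54, adjusted p = 0.102). The Col1a1 call was lost without P2H2KO 11, 15 or 17, with log2 fold changes of 2.74 to 3.37 and adjusted p of 0.0116 to 0.0655 over the 16 edgeR fits that left out 1 library, and also with no filter on low counts (adjusted p = 0.0621).

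Col1a2 (chr6:4504814-4541544), the second chain of the same trimer, was at 250.2, 136, 398 and 219 CPM in P2KO and 143, 448, 159.6 and 114 CPM in P2WT. Its P2H2 values were 19.98, 50.1, 42.5 and 31.2 CPM in P2H2KO and 39.3, 34.5, 50.1 and 76.9 CPM in P2H2WT. The lines did not overlap, and the fold difference was 6.97 between the KO groups (log2 2.80 ± 0.46 SE, edgeR adjusted p = 0.0136). Col5a2 (chr1:45374321-45503282), a chain of type V collagen that sets fibril width, was less abundant, at 9.71, 7.04, 15.6 and 11.4 CPM in P2KO and 7.13, 16.6, 7.80 and 5.17 CPM in P2WT. For Col5a2 the P2H2 libraries gave 1.64, 2.34, 2.30 and 2.16 CPM in P2H2KO and 1.502, 1.75, 2.01 and 3.71 CPM in P2H2WT. The lines again did not overlap, and Col5a2 was called in both comparisons (log2 2.36 ± 0.37 SE, adjusted p = 0.0112 in the KO groups, and 2.03 ± 0.36, adjusted p = 0.0400 in the WT groups, edgeR). With each of the 16 libraries left out in turn, the KO calls of Col1a2 and Col5a2 remained in 16 of 16 fits, while the WT call of Col5a2 remained in 8 of 16, with log2 fold changes of 1.57 to 2.38. Col3a1, the type III collagen of loose connective tissue, was at 4.46 to 12.97 CPM in the P2 line and 1.23 to 4.48 CPM in the P2H2 line, where P2H2WT 18 overlapped the lowest P2 library (adjusted p = 0.0530 in the KO groups, edgeR). Col5a1, the partner chain of Col5a2, behaved differently: it lay at 34.6 to 47.99 CPM in the P2 line and 25.3 to 48.9 CPM in the P2H2 line, and the 95% interval of its log2 fold change was -0.07 to 0.65 in the KO groups and -0.29 to 0.42 in the WT groups. Exons of Col3a1 and Col5a1 overlap those of other annotated genes (Gm47302 on the same strand for Col3a1; 2810430I11Rik and Gm13372 on the other strand for Col5a1), and whether counting used strand is not given in the sources used here, so these values are less certain.

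**Figure D3:**
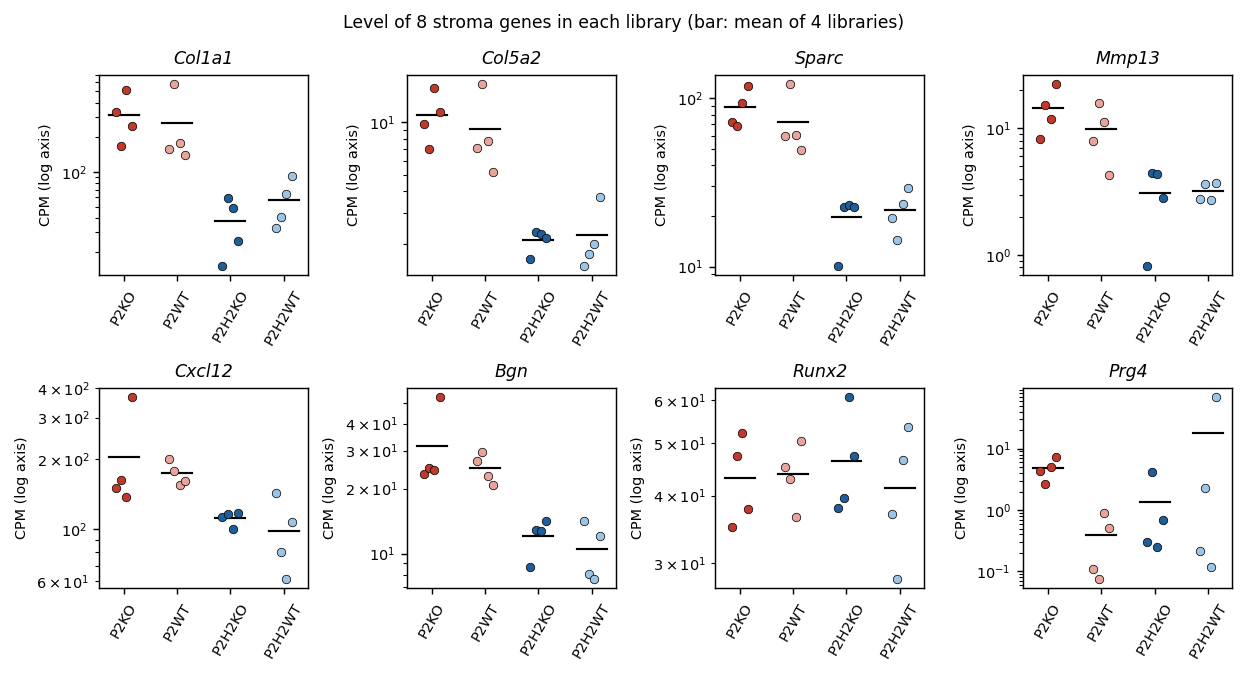
Level of 8 stroma genes in each library (points, CPM on a log axis whose range differs between panels) by group, with the mean of 4 libraries as a bar. Col1a1, Col5a2, Sparc and Bgn have all 8 P2 libraries above all 8 P2H2 libraries, Runx2 does not separate the lines, and Prg4 has 1 P2H2WT library far above the rest.

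Type VI collagen forms beaded filaments around cells. Its 3 chains were higher in the P2 line at unadjusted p under 0.05 in both comparisons, with 0 of 3 called after adjustment. At that unadjusted level 9.50% of all genes were higher in the KO comparison and 6.94% in the WT comparison. Col6a1 (chr10:76708792-76726168), the most abundant chain by CPM, was at 7.94, 12.2, 10.7 and 28.4 CPM in P2KO and 12.6, 12.9, 10.1 and 12.1 CPM in P2WT. Its P2H2 values were lower, at 3.68, 5.48, 6.50 and 8.11 CPM in P2H2KO and 6.26, 3.07, 4.72 and 3.35 CPM in P2H2WT. P2KO 9 was by far the highest, and the lowest P2 library, P2KO 1, lay just under P2H2KO 17 (log2 1.32 ± 0.35 SE, edgeR adjusted p = 0.0947). Col6a2 lay at 6.10 to 20.7 CPM in the P2 line against 2.87 to 6.54 CPM in the other, with P2KO 1 under P2H2KO 17 again, and Col6a3 at 2.57 to 9.71 against 0.476 to 2.30 CPM without overlap.

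Of the 7 non-collagenous proteins of bone matrix, 6 were tested, and 2 were called higher in P2KO than in P2H2KO (0.767% of all genes were). All 6 tested had the 4 P2KO libraries above the 4 P2H2KO libraries (4.42% of all genes did). Sparc (chr11:55394500-55423183), which encodes osteonectin, a collagen-binding protein abundant in bone, was at 71.96, 68.5, 94.2 and 118 CPM in P2KO and 59.3, 122, 60.3 and 49.3 CPM in P2WT. In the P2H2 line Sparc was at 10.1, 22.7, 23.2 and 22.6 CPM in P2H2KO and 19.5, 14.3, 23.4 and 29.5 CPM in P2H2WT. The lines were well apart, with P2H2KO 11 the lowest library and P2WT 3 and P2KO 9 the highest. Sparc had the smallest p of the 36 in P2KO against P2H2KO (log2 2.17 ± 0.33 SE, 4.49-fold, edgeR adjusted p = 0.0112), and this call remained in 16 of 16 fits with 1 library left out. In P2WT against P2H2WT Sparc was 3.35-fold higher (log2 1.75 ± 0.32 SE, adjusted p = 0.0421), a call kept in 6 of those 16 fits, with log2 fold changes of 1.36 to 1.93; with no filter, or 10 counts asked of every library, the WT calls of Sparc (adjusted p = 0.0981 and 0.0689) and Col5a2 (0.0719 and 0.0689) were lost. Spp1 (osteopontin), which many cell types make, differed less: 10.1 to 29.6 CPM against 9.17 to 15.3 CPM, and Ibsp (bone sialoprotein) 15.4 to 40.3 against 7.25 to 15.6 CPM, with the lines overlapping in both. Spp1 overlaps exons of Gm42793 on the same strand, and its reads may be split.

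Dmp1 (chr5:104202613-104214102), a matrix protein of osteocytes, was close to the limit of detection, with 22, 28, 29 and 15 reads in P2KO and 2, 10, 12 and 3 in P2WT. P2H2KO libraries held 1, 0, 3 and 2 Dmp1 reads, and P2H2WT libraries 19, 14, 3 and 5. P2KO held the most reads and P2H2KO the fewest, without overlap of these 2 groups, and the wild-type groups overlapped. Dmp1 was called in P2KO against P2H2KO (log2 3.74 ± 0.70 SE, edgeR adjusted p = 0.0229), while the value in P2WT against P2H2WT was negative (-0.58 ± 0.59, adjusted p = 0.850). The call rested on few reads and was lost without P2KO 5 or without any 1 of the 4 P2H2KO libraries, with log2 fold changes of 3.31 to 4.20 and adjusted p of 0.0183 to 0.0741 over the 16 fits.

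Osteocalcin, the vitamin K dependent matrix protein of osteoblasts, is encoded in the mouse by near-identical neighbours, Bglap and Bglap2, whose reads are hard to assign. Their coding sequences (Bglap chr3:88383501-88384464 and Bglap2 chr3:88377736-88378699, both on the minus strand of GRCm38, GENCODE M21) are shown because 4 of 288 bases tell the genes apart, in capitals, with a run of 241 identical bases between them (98.6% identity).
Bglap: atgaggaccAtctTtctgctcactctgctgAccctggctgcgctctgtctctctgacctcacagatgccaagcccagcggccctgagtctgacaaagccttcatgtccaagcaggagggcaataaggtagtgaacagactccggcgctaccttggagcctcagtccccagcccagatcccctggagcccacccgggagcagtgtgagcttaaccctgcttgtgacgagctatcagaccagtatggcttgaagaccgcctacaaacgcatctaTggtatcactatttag
Bglap2: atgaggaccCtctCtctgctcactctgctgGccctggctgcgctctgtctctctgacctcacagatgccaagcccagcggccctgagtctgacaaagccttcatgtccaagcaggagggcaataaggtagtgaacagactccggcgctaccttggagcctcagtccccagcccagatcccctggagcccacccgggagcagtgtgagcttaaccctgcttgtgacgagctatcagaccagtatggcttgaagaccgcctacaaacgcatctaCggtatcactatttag

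Read counts of Bglap were 48, 14, 26 and 30 in P2KO, 21, 74, 11 and 30 in P2WT, 0, 4, 9 and 5 in P2H2KO, and 7, 7, 16 and 14 in P2H2WT. Those of Bglap2 were 13, 4, 12 and 5 in P2KO, 8, 37, 4 and 13 in P2WT, 0, 2, 0 and 1 in P2H2KO, and 3, 0, 2 and 4 in P2H2WT. Both were highest in P2WT 3, the library with the most Col1a1, and at 0 in P2H2KO 11, the library with the least. Neither passed the adjusted threshold between the KO groups (Bglap log2 2.57 ± 0.68 SE, edgeR adjusted p = 0.0970; Bglap2 3.18 ± 1.02, adjusted p = 0.177), and adding the counts of both genes left 9 and 2 members called in the KO and WT comparisons.

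Of 5 regulators and enzymes of osteoblasts, 1 (Mmp13) was called higher in P2KO than in P2H2KO (0.767% of all genes were). Runx2 (chr17:44495987-44814797), the transcription factor that commits cells to the osteoblast fate, was at 35.04, 47.4, 52.1 and 37.7 CPM in P2KO and 45.1, 42.9, 36.5 and 50.5 CPM in P2WT. In the P2H2 line Runx2 was at 37.9, 39.6, 60.8 and 47.3 CPM in P2H2KO and 36.98, 28.1, 46.5 and 53.4 CPM in P2H2WT. All 4 groups overlapped, and the 95% interval of the log2 fold change was -0.52 to 0.31 in the KO groups and -0.33 to 0.50 in the WT groups, which leaves out values as large as those of Col1a1, Col1a2 and Col5a2. Sp7 (osterix), which acts after Runx2 in the same lineage, was far lower, at 0.434 to 1.07 CPM in the P2 line and 0 to 0.404 CPM in the P2H2 line, without overlap. Runx2 overlaps exons of Runx2os1 on the other strand.

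Mmp13 (chr9:7272514-7283331), a collagenase of osteoblasts and hypertrophic cartilage, was at 8.27, 15.2, 11.8 and 22.6 CPM in P2KO and 7.93, 15.99, 11.2 and 4.27 CPM in P2WT. P2H2 libraries held 0.822, 4.43, 4.34 and 2.79 CPM in P2H2KO and 2.79, 3.66, 2.71 and 3.71 CPM in P2H2WT. P2WT 7 lay just under P2H2KO 12 and 15, and the other 7 P2 libraries were above all 8. Mmp13 was 4.63-fold higher in P2KO than in P2H2KO (log2 2.21 ± 0.45 SE, edgeR adjusted p = 0.0316). That call was lost without P2KO 5, P2KO 9 or any 1 of the 4 P2H2KO libraries, with log2 fold changes of 1.89 to 2.42 and adjusted p of 0.0236 to 0.115, and with no filter (edgeR adjusted p = 0.0881). Alpl, the alkaline phosphatase that frees phosphate for mineral, was at 5.98 to 13.5 CPM against 2.29 to 5.88 CPM without overlap, and Phex, a phosphate-regulating peptidase of osteocytes, at 0.311 to 1.01 against 0.121 to 0.856 CPM with overlap.

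Runx2 binds a short core sequence, and promoters of 3 genes of the list that hold it are shown, since Runx2 itself did not separate the lines: 250 bases upstream of the start, from RefSeq on GRCm38.p6, 5′ to 3′ on the strand of the gene. They are Bglap (chr3:88384467-88384716, minus), Mmp13 (chr9:7272264-7272513, plus) and Spp1 (chr5:104434861-104435110, plus), and capitals mark the RUNX core TGTGGT or its reverse complement ACCACA and the letters TATAAA, the core of a TATA box, which lie near the start in Bglap and Mmp13 and 211 bases upstream of it in Spp1.
Bglap promoter: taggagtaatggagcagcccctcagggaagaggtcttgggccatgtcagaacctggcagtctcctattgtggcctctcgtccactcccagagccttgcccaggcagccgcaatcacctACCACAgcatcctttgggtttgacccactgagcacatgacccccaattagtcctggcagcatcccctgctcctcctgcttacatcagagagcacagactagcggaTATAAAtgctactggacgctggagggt
Mmp13 promoter: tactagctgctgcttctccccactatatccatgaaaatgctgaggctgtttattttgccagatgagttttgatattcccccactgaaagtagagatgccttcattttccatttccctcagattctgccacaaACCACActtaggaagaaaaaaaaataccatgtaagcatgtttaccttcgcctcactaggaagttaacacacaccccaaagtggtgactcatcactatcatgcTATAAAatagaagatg
Spp1 promoter: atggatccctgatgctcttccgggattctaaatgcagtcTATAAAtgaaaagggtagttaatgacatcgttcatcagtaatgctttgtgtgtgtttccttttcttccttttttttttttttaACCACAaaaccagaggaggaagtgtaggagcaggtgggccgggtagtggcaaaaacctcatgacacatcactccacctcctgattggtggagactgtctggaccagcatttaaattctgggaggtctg

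Both strands of the RefSeq windows, which run from 250 bases before to 50 after the start, were searched for 3 motifs, and 28 of the 37 genes had a window. TGTGGT was found in 9 of the 28 (32.1%), among them Runx2, Sparc and Dmp1, and in 16.8% of all 32851 windows (18.9% of 27025 genes). TATAAA was found in 10 of the 28 (35.7%), Col3a1, Ibsp, Alpl and Postn among them, and in 13.6% of all windows (15.7% of genes). ACGTG, the core of the HIF-binding element, was found in 4 of the 28 (14.3%; Col1a2, Col5a1, Dmp1 and Serpinf1) and in 19.6% of all windows (21.8% of genes). A match of letters is a description and not a binding site.

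Among 11 small proteoglycans and other matrix proteins, all of which were tested, 2 were called higher in P2KO than in P2H2KO (0.767% of all genes). Bgn (chrX:73483602-73495933), biglycan, which binds collagen fibrils, was at 23.3, 24.8, 24.4 and 53.1 CPM in P2KO and 26.7, 29.5, 22.8 and 20.8 CPM in P2WT. The P2H2 line gave 8.69, 12.9, 12.7 and 14.1 CPM in P2H2KO and 14.2, 8.004, 7.62 and 12.1 CPM in P2H2WT for Bgn. The lines did not overlap and P2KO 9 stood far above the rest. Bgn was 2.59-fold higher (log2 1.37 ± 0.27 SE, edgeR adjusted p = 0.0274), and the call was lost without P2KO 9 (log2 0.98) or without any 1 of the 4 P2H2KO libraries (adjusted p of 0.0249 to 0.0822 over the 16 fits), as well as with no filter (edgeR adjusted p = 0.0650). Postn (chr3:54361109-54391037), periostin, a protein of bone surfaces, was at 1.21, 1.90, 1.07 and 3.80 CPM in P2KO and 0.720, 1.35, 1.98 and 0.711 CPM in P2WT. Postn in the P2H2 line was at 0.130, 0.524, 0.538 and 0.631 CPM in P2H2KO and 0.644, 0.478, 0.503 and 0.606 CPM in P2H2WT. No library overlapped, but the adjusted p was 0.0495 (log2 2.11 ± 0.47 SE, edgeR), just inside the threshold, and the call was kept in 3 of the 16 fits, with log2 fold changes of 1.58 to 2.32 and adjusted p of 0.0313 to 0.185; with RLE factors the adjusted p was 0.0507.

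Igfbp5 (chr1:72857932-72874884), a carrier of insulin-like growth factors and the most abundant gene of this group by CPM, was at 53.7, 42.2, 25.2 and 132 CPM in P2KO and 69.96, 52.5, 50.1 and 66.2 CPM in P2WT. P2H2 libraries gave 20.7, 20.1, 39.3 and 43.3 CPM in P2H2KO and 27.00, 15.5, 19.6 and 29.3 CPM in P2H2WT for Igfbp5. The group means differed in the same direction in both genotypes, but P2KO 5 and 6 fell within the P2H2 range and the adjusted p was 0.243 in the KO groups (log2 1.04 ± 0.41 SE, edgeR); without P2KO 9 the log2 fold change was 0.37. Ogn was at 1.90 to 5.87 against 0.580 to 1.53 CPM and Fbn1, the microfibril protein, at 7.83 to 21.2 against 1.67 to 7.80 CPM, both without overlap, although Fbn1 overlaps exons of Gm9913. The lines overlapped for Dcn (1.95 to 6.19 against 0.774 to 3.27 CPM), Lum (0.711 to 4.13 against 0.259 to 1.09 CPM), Mgp (0.404 to 1.501 against 0.0404 to 0.692 CPM) and Omd, which stayed under 1 CPM everywhere. Serpinf1, which encodes the anti-angiogenic factor PEDF, did not follow the line: 6.18 to 11.8 against 5.73 to 11.95 CPM, with a 95% interval of the log2 fold change of -0.66 to 0.35 in the KO groups.

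Prg4 (chr1:150449412-150466165), lubricin of joint surfaces, was chosen for description after its values were seen. It was at 4.34, 2.66, 4.94 and 7.33 CPM in P2KO and 0.108, 0.0751, 0.889 and 0.513 CPM in P2WT. In the P2H2 line Prg4 was at 0.303, 4.11, 0.251 and 0.676 CPM in P2H2KO and 0.215, 2.27, 0.116 and 69.4 CPM in P2H2WT. Every P2KO library was above every P2WT library, and P2H2WT 18 alone was above all others, with 1718 of the 2466 Prg4 reads of the whole data set. In P2KO against P2WT it was 12.4-fold higher (log2 3.63 ± 0.59 SE, adjusted p = 0.198 by edgeR). DESeq2 gave an adjusted p of 2.39e-06, the lowest of the alternatives, and the others, edgeR fits, gave 0.160 to 1.0. In P2H2KO against P2H2WT the value was -3.73 ± 1.80 SE, and it turned positive, at 0.64, without P2H2WT 18. Prg4 overlaps exons of Tpr.

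Among 6 niche factors and receptors, 1, Pdgfra, was called higher in P2KO than in P2H2KO (0.767% of all genes were). Cxcl12 (chr6:117168535-117181367), the chemokine that retains CXCR4-bearing neutrophils and stem cells in marrow, was at 149.6, 163, 137 and 367 CPM in P2KO and 200.3, 177, 155 and 161 CPM in P2WT. Its level in the P2H2 line was 113, 116, 101 and 117 CPM in P2H2KO and 143, 80.4, 61.3 and 107 CPM in P2H2WT. P2KO 9 stood at more than any other library, and P2H2WT 13 lay within the P2 range (log2 0.87 ± 0.29 SE, edgeR adjusted p = 0.184). Without P2KO 9 the log2 fold change between the KO groups was 0.41. Pdgfra (chr5:75152292-75198215), a receptor that marks mesenchymal progenitors, was at 1.84, 2.24, 2.17 and 4.53 CPM in P2KO and 2.45, 2.93, 2.14 and 1.86 CPM in P2WT. P2H2 libraries held 0.951, 1.05, 1.22 and 1.31 CPM in P2H2KO and 1.22, 0.876, 0.735 and 0.767 CPM in P2H2WT of Pdgfra. The lines did not overlap (log2 1.25 ± 0.27 SE, edgeR adjusted p = 0.0440), but the call was kept in 3 of the 16 fits with 1 library left out, and the log2 fold change was 0.86 without P2KO 9; the adjusted p was 0.0327 to 0.120 over those fits and 0.0645 with at least 10 counts asked of every library. Pdgfra overlaps exons of Gm42802, Gm42803 and Mir7025.

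Of the others, Kitl, the ligand of KIT on stem cells, was at 7.90 to 19.2 CPM against 4.33 to 9.16 CPM. Lepr, the receptor that marks reticular stroma, was at 8.85 to 29.4 against 4.38 to 10.5 CPM, and Adipoq, which the same cells and fat cells make, at 4.82 to 22.1 against 1.82 to 8.38 CPM. Pdgfrb, the receptor of pericytes and stroma, was at 6.84 to 14.8 against 4.33 to 6.81 CPM. Pdgfrb alone of these 4 kept the lines apart, by a small margin, and its log2 fold change was 0.60 ± 0.19 SE in the KO groups (edgeR adjusted p = 0.175).

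Within each line the question was whether loss of PHD2, alone or with HIF2, changed these genes. In P2KO against P2WT, edgeR called 0 of 36 (3 at an unadjusted p under 0.05) and DESeq2 called 1, Prg4, where edgeR called 0.0437% and DESeq2 0.167% of all 13734 genes. Their median log2 fold change was 0.26, beside 0.020 over all genes. Of the 36 values 31 were positive, beside 7936 of 13734 over all genes. The members share the same libraries, so their directions are not independent. The 3 were Prg4, Dmp1 and Mgp, all higher in P2KO (1.49% of all genes were higher at that level), and the libraries of Prg4 and Dmp1 did not overlap (0.859% of all genes did so higher in P2KO, and 1.39% lower, against 0 of 36). For Dmp1 the log2 value was 1.74 ± 0.48 SE. In P2H2KO against P2H2WT, edgeR called 0 of the 31 that passed the filter (2 at an unadjusted p under 0.05) and DESeq2 0, where edgeR called 0.0744% and DESeq2 0.313% of all 13435 genes. Their median was 0.19, beside 0.0011 over all genes, and 19 of the 31 values were positive, beside 6791 of 13435 over all genes. The 2 were Lepr (log2 0.54 ± 0.18 SE) and Pdgfrb (0.33 ± 0.12), both higher in P2H2KO (1.62% of all genes were), and the libraries of Pdgfrb did not overlap (0.901% of all genes did so higher in P2H2KO, and 0.811% lower, against 0 of 31). Bglap, Bglap2, Dmp1, Sp7, Omd and Mepe had too few reads in the P2H2 line for this test.

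For the abundant members the intervals were wide: the 95% interval of the Col1a1 log2 fold change was -0.88 to 1.40 in P2KO against P2WT and -1.62 to 0.37 in P2H2KO against P2H2WT. For Sparc they were -0.37 to 0.95 and -0.78 to 0.49, and for Cxcl12 -0.42 to 0.92 and -0.31 to 0.69. Runx2 was held more closely, at -0.34 to 0.31 and -0.30 to 0.64. A genotype effect as large as the line difference of Sparc (log2 2.17 and 1.75) lay outside the intervals of Sparc. The difference between the genotype effects of the lines was called for 0 of 36 by edgeR (2 at an unadjusted p under 0.05, Dmp1 and Prg4, both positive, where 0.788% of all genes were positive and 0.717% negative at that level) and for 0 by DESeq2, where each called 0.00% of all 14080 genes. The Prg4 difference was 7.36 on the log2 scale and ran from 2.97 to 9.07 over the 16 fits with 1 library left out. P2H2WT 18 held 1718 of its 2466 reads.

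**Figure D4:**
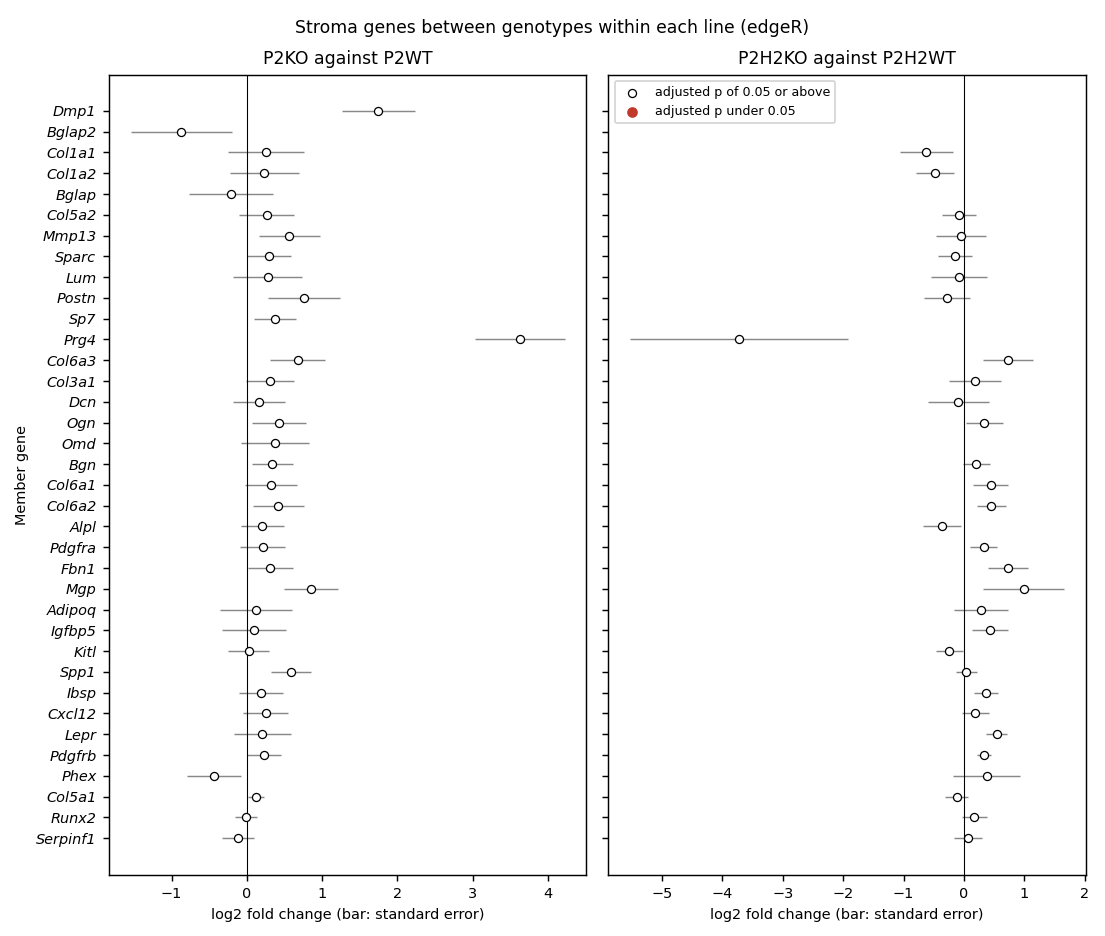
Log2 fold change (points) with its standard error (bars), P2KO against P2WT on the left for 36 stroma genes and P2H2KO against P2H2WT on the right for the 31 tested there, each with its own horizontal scale and in the gene order of the line comparison. All points are open, since none of the adjusted p values was under 0.05, and Prg4 lies far to the right in the left panel and far to the left in the right panel.

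The stroma genes did not peak in the same library of a line. In the P2 line, P2KO 9 was the highest of the 8 libraries for 21 of the 37 genes and P2WT 3 for 9. P2KO 9 led for all 6 niche genes, all 3 type VI collagen chains, Bgn, Fbn1, Ogn and Postn, and also for bone and fibrillar collagen genes (Col3a1, Col5a1, Ibsp, Sp7, Alpl and Mmp13) and for Prg4 and Igfbp5. P2WT 3 led for Col1a1, Col1a2, Col5a2, Sparc, Bglap, Bglap2, Lum, Dcn and Serpinf1, so bone genes were divided between the 2 libraries. Cxcl12 reached 367 CPM in P2KO 9 against 137 to 200.3 CPM in the other 7 libraries, and Lepr 29.4 CPM against 8.85 to 14.5 CPM. Col1a1 was at 249 CPM in P2KO 9, below P2KO 1, P2KO 6 and P2WT 3. The library with the most niche transcripts was not the one with the most type I collagen. The ratio of Col1a1 to Cxcl12 CPM was 0.678 in P2KO 9, 3.30 in P2WT 3 and 3.73 in P2KO 6, the highest of the 16, and 0.135 in P2H2KO 11, the lowest.

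In the P2H2 line, P2H2KO 17 was the highest of the 8 for 11 genes (Col6a1, Col6a2, Phex, Omd, Ogn, Fbn1, Igfbp5, Lepr, Pdgfra, Pdgfrb and Adipoq). P2H2WT 18 was the highest for 10 (Col1a1, Col1a2, Col3a1, Col5a2, Sparc, Bglap2, Sp7, Lum, Dcn and Prg4), and P2H2WT 13 for 6, Cxcl12 and Kitl among them. P2KO 9 is the 1 P2KO library whose title ends in f and not m, and it also held the most endothelial transcripts (345 CPM summed over 16 markers, against 166 to 212 in the other 7 P2 libraries) and the most megakaryocyte and platelet transcripts (203 CPM over 8 markers, against 42.99 to 102). The part of either in these values was not tested.

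**Figure D5:**
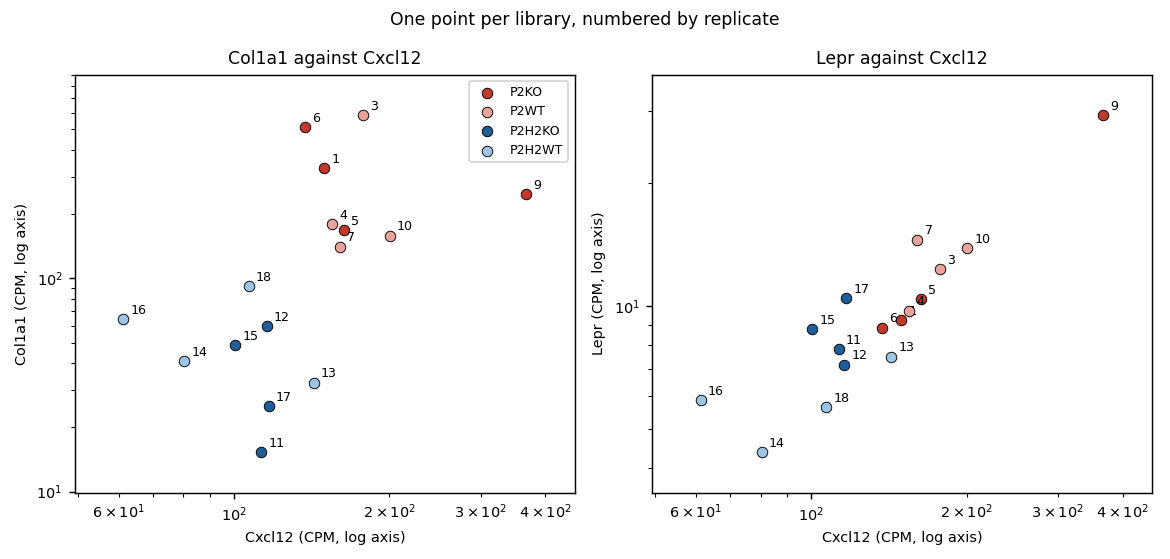
Each point is 1 library, numbered by replicate and coloured by group, with Col1a1 against Cxcl12 on the left and Lepr against Cxcl12 on the right (CPM, log axes). P2KO 9 stands alone in Cxcl12 (367 CPM) and Lepr (29.4 CPM) but not in Col1a1, whose highest values are in P2WT 3 and P2KO 6.

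Other genes of the same programmes were read from 3 lists of related genes, also chosen with earlier results of these data known. Of 26 genes that process or join collagen, 23 were tested; 11 were called higher in P2KO than in P2H2KO and 0 lower (0.767% of all genes were called higher), and 1 of 23 was called higher in P2WT than in P2H2WT (0.121% of all genes). Those of smallest p were Mmp2, a gelatinase (log2 2.12 ± 0.32 SE, edgeR adjusted p = 0.0112), Serpinh1, the collagen chaperone HSP47 (1.34 ± 0.21, adjusted p = 0.0112), and Lox, which crosslinks collagen (1.65 ± 0.26, adjusted p = 0.0128). Serpinh1 was also the 1 called in the WT groups (1.17 ± 0.21 SE, adjusted p = 0.0400). The median log2 fold change of the 23 was 1.34 in the KO groups and 1.19 in the WT groups. Their summed CPM over 26 genes did not follow the line, at 1134 to 2266 in the P2 line and 1221 to 3026 in the P2H2 line, with a mean of 1507 in P2KO and 2049 in P2H2KO. Fn1, fibronectin, named after its values were seen, held most of that sum, at 857 to 2089 CPM against 1105 to 2909 CPM (log2 -0.59 ± 0.26 SE in the KO groups, adjusted p = 0.297 by edgeR). Of 23 further osteoblast and osteocyte genes 13 were tested and 3 called higher in the KO comparison (Wif1, Smpd3 and Pth1r) with 0 lower; 12 of the 23, Sost, Fgf23 and Dkk1 among them, stayed under 1 CPM in every library. Wif1, a secreted Wnt inhibitor, was 4.62-fold higher (log2 2.21 ± 0.33 SE, adjusted p = 0.0112 by edgeR). Of 17 further marrow stroma genes 16 were tested and 2 called higher (Islr and Ebf3, the latter a transcription factor of reticular stroma) with 0 lower; in the WT comparison neither of these lists held a call.

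Markers of 8 other cell types were read beside these results. Endothelial markers went with the line. Of the 15 tested, 8, Cdh5, Kdr and Emcn among them, had all 8 P2 libraries above all 8 P2H2 libraries (1.24% of all genes). The sum over 16 genes was 166 to 345 CPM in the P2 line and 126 to 154 CPM in the P2H2 line. Plvap, Emcn and Cdh5 were called in P2KO against P2H2KO (Plvap log2 1.40 ± 0.27 SE, edgeR adjusted p = 0.0267), where 0.767% of all genes were called higher. None of the 16 was at 0 in every library. Among 10 osteoclast markers, 1 of the 8 tested, Ctsk, the collagen-degrading protease cathepsin K, was called higher (1.77 ± 0.35 SE, adjusted p = 0.0288), while the sums overlapped (242 to 346 and 247 to 292 CPM). The sums also overlapped for macrophage (962 to 1439 and 918 to 1275 CPM, 10 genes), megakaryocyte and platelet (42.99 to 203 and 31.6 to 89.1 CPM, 8 genes) and pericyte and smooth muscle markers (24.9 to 43.4 and 16.6 to 34.9 CPM, 10 genes), with 0 calls in either comparison between lines. At an unadjusted p under 0.05 by edgeR, 7 of 10 macrophage markers were higher and 2 lower in the KO groups. In the WT groups 2 were higher (KO and WT median log2 0.38 and 0.20). Of 6 pericyte markers tested, 3 were higher in each comparison and 1 lower in the KO groups (medians 0.69 and 0.65). Of 8 megakaryocyte markers, 1 and 2 were higher (medians 0.79 and 0.70). Of all genes, 9.50% and 6.94% were higher and 6.34% and 3.10% lower. Low sums were found for chondrocyte (2.99 to 14.4 and 1.04 to 6.85 CPM; 7 of 10 under 1 CPM everywhere) and skeletal muscle markers (11.4 to 18.5 and 12.8 to 16.996 CPM; 5 of 8 under 1 CPM everywhere). The chondrocyte markers also moved with the line: 3 of the 4 tested (Col2a1, Acan and Col10a1) were higher in the P2 line at an unadjusted p under 0.05 in both comparisons, 0 were called, and the median log2 fold change of the 4 was 1.62 in the KO groups and 2.08 in the WT groups. Adipocyte markers summed to 46.3 to 68.5 and 46.5 to 60.5 CPM, Lep was at 0 in all 16 libraries, and Plin1 and Cidec stayed under 1 CPM, while Adipoq, a stroma gene here, was present in all. Of the 4 adipocyte markers tested, 3 were higher and 1 lower in the KO groups at an unadjusted p under 0.05 by edgeR. In the WT groups 0 were (medians 0.68 and 0.077). Of the 8 osteoclast markers tested, 4 were higher in the KO groups and 1 in the WT groups at that level (medians 0.56 and 0.085). For the 5 skeletal muscle markers tested these counts were 0 and 2 (medians -0.12 and 0.27). Neutrophil markers overlapped between the lines, but all 12 log2 values were negative, so lower in the P2 line, in both comparisons. Over all 14080 genes 6865 values were negative in the KO groups and 7283 in the WT groups. The median of the 12 was -0.41 in the KO groups and -0.17 in the WT groups, with 0 calls (1 and 0 at an unadjusted p under 0.05, lower in P2KO). The part of other cell types, endothelium and cartilage included, in the line difference of the stroma genes was not tested.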

How the data were processed

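Neutrophil RNA of 16 libraries was analysed from the whole-number counts per gene deposited by the authors in 2 tables, 1 per mouse line, which per the submitters' processing notes involved HTSeq and mm10. The aligner, annotation release and strand setting are not given in the sources used here. Symbols were matched to 49326 of 49585 gene identifiers, and identifiers without a symbol held 0.00714% of counts. Groups came from the sample labels. Libraries held 23450746 to 28601284 counts, which limits the precision of genes with few reads.

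The tests used edgeR 4.0.16 in R 4.3.3 (filterByExpr, TMM factors, estimateDisp, robust glmQLFit, glmQLFTest) with Benjamini-Hochberg adjustment over all genes tested and a threshold of 0.05. Genotypes were compared in the 8 libraries of each line, and the lines and the difference of genotype effects in a fit of all 16. CPM uses the TMM-scaled library sizes of the latter, RPKM divides by the exon length of GENCODE M21, and 95% intervals use the t quantile of the edgeR degrees of freedom. The labels do not say that libraries came from separate mice, so p-values measure the spread between libraries, which may be technical.

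Full values were given for at most 2 called genes per role group and comparison, by smallest p, and for the gene of highest mean CPM in each role group. Other genes with values in every library, Prg4, Bglap and Bglap2, were chosen after their values were seen. The 37 genes and the other lists were chosen with earlier results of these data known. Alternatives changed the scaling (RLE, upper quartile), dropped the filter or asked for 10 counts per library, used DESeq2 1.42.0, took the m or f title suffix as a covariate, summed the osteocalcin counts, or left out each library. The scripts were tested on simulated data. Tables and plots used Python 3.11.15, numpy 2.4.6, pandas 2.3.3 and matplotlib 3.10.9.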

Additional observations from a re-analysis of the deposited data

Results flagged for a closer look

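Each gene, or sum of genes, was checked in each group of 4 libraries, which gave 169 sets of 4 values. In 24 of them 1 library stood so far from the other 3 that its gap to the nearest filled most of the range (past Dixon's 95% limit). A single set of normally distributed values passes that limit about 1 time in 20. The sets share the same libraries, and sums share genes, so they are not independent and the 24 cannot be weighed against that rate. P2WT 3 stood apart for Col1a1 at 585 CPM (the other 3 at 141 to 179.6), Col1a2 at 448 CPM (the other 3 at 114 to 159.6) and Sparc at 122 CPM (the other 3 at 49.3 to 60.3). The same held in P2WT 3 for Alpl at 10.3 CPM (the other 3 at 5.98 to 6.38), the sum of the 37 genes at 1717 CPM (the other 3 at 778 to 905) and the sum of the fibrillar collagens at 1103 CPM (the other 3 at 299 to 403). P2H2WT 18 stood apart for Col6a3 at 1.45 CPM (the other 3 at 0.823 to 0.928), Dcn at 3.27 CPM (the other 3 at 0.774 to 1.07) and Prg4 at 69.4 CPM (the other 3 at 0.116 to 2.27). P2H2KO 11 stood apart for Sparc at 10.1 CPM (the other 3 at 22.6 to 23.2). P2KO 9 stood apart for Alpl at 13.5 CPM (the other 3 at 6.20 to 6.97), Ogn at 5.87 CPM (the other 3 at 1.97 to 2.21) and Bgn at 53.1 CPM (the other 3 at 23.3 to 24.8). The same held in P2KO 9 for Fbn1 at 21.2 CPM (the other 3 at 7.83 to 9.21), Cxcl12 at 367 CPM (the other 3 at 137 to 163) and Kitl at 19.2 CPM (the other 3 at 7.90 to 8.94). Further values of P2KO 9 were Lepr at 29.4 CPM (the other 3 at 8.85 to 10.4), Pdgfra at 4.53 CPM (the other 3 at 1.84 to 2.24) and Adipoq at 22.1 CPM (the other 3 at 4.82 to 5.88). P2KO 9 also had the sum of the proteoglycan group at 239 CPM (the other 3 at 85.6 to 107) and the sum of the niche group at 457 CPM (the other 3 at 169 to 199.7). P2H2KO 12 stood apart for Alpl at 5.88 CPM (the other 3 at 2.29 to 2.80) and Prg4 at 4.11 CPM (the other 3 at 0.251 to 0.676). P2WT 10 stood apart for Mgp at 0.612 CPM (the other 3 at 0.513 to 0.526), but this rested on 17 reads against 14, 13 and 13. The P2KO 9 values include each of Cxcl12, Kitl, Lepr, Pdgfra and Adipoq, and the cause was not tested.

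For Dmp1 the genotype effects pointed in opposite directions: every P2KO library was above every P2WT library, while every P2H2KO library was below every P2H2WT library once scaled. The margin in the second case was thin, since P2H2KO 15 and P2H2WT 16 each held 3 reads. The difference of the 2 effects was 4.32 on the log2 scale, with an unadjusted p of 0.000333 and an adjusted p of 0.999 by edgeR, so it failed the correction over all genes; counts ran from 0 to 29 reads per library.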

How the results depend on the processing

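No stroma gene passed the adjusted threshold within either line under any edgeR alternative, and DESeq2 called 1 (Prg4) in P2KO against P2WT. For P2WT against P2H2WT, where edgeR called 2, the count was 0 with no filter, 0 with at least 10 counts in every library, 18 by DESeq2 and 5 with the title suffix as a covariate, and 0 to 14 with 1 library left out. For P2KO against P2H2KO, where edgeR called 9, it was 22 by DESeq2, 14 with the title suffix, 6 under either change of filter, 8 with RLE factors, and 3 to 12 with 1 library left out. Over all genes, edgeR called 130 and 32 in the KO and WT comparisons, DESeq2 422 and 291, and edgeR with the title suffix 210 and 124.

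Leaving out 1 library turned the direction of values that had not passed the threshold. Col1a1 in P2KO against P2WT ran from -0.086 (without P2KO 6) to 0.99, and Cxcl12 from -0.20 (without P2KO 9) to 0.40. In P2H2KO against P2H2WT, Sparc ran from -0.30 to 0.073 (0.036 without P2H2WT 18) and Prg4 from -5.46 to 0.64 (without P2H2WT 18). Runx2 ran from -0.060 to 0.23 in P2WT against P2H2WT (-0.0071 without P2WT 7) and from -0.21 to 0.049 in P2KO against P2H2KO. The cause was not tested. Of the other log2 values under alternatives, 723 kept their direction and their side of the threshold, 73 lost and 19 gained a call. These counts cover 14 named genes in the comparisons between lines, fewer in the others, and Bglap with the osteocalcin counts summed. A value called in neither fit, with its direction kept, is among the 723.

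No paired analysis was possible because no replicate number is shared between groups. Dmp1, Mepe, Bglap2, Sp7, Omd, Phex and Mgp rest on few reads, and small changes in them were not detectable at this depth.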
